A study of Mus musculus with 2 samples.

Results

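The TWIST, SNAIL, ZEB and PRRX transcription factors are best known for driving the epithelial to mesenchymal transition, in which cells give up their tight contacts with neighbours and become motile. *Twist1* and *Twist2* encode basic helix-loop-helix proteins that bind DNA together with E proteins. *Snai1* and *Snai2* encode zinc finger repressors of E-cadherin and other junction genes, *Zeb1* and *Zeb2* encode large repressors with zinc finger clusters and a homeodomain, and *Prrx1* and *Prrx2* encode paired-related homeodomain proteins of mesenchymal cells. These 8 genes were chosen by symbol, with earlier results of these data known. All 8 were among the 14450 mouse genes with an unambiguous sense tag. The tags came from digital gene expression (DGE) libraries of the cell lines GC-1spg and GC-2spd (ts).

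The source of GC-1spg was a mouse aged 10 days, whose type B spermatogonia received the plasmid pSV3-neo. GC-2spd (ts) came from spermatocytes of a mouse aged 6 weeks and carries the SV40 large T antigen. Both are transformed lines, and both were grown in DMEM with 10% serum and sodium bicarbonate. DGE counts tags of 21 bases, made of an *Nla*III site (CATG) and the 17 bases after it, so that a transcript molecule gives 1 tag whatever its length and levels of different genes can be compared in copies per 1000000 clean tags (TPM). The libraries held 5072149 clean tags for GC-1spg and 4726808 for GC-2spd (ts), and 1 copy was worth 0.197 and 0.212 TPM. With 1 library per line no difference has a replicate check. Each test below compares those 2 libraries and not the lines, and intervals cover counting error only, since copies made by PCR were not told apart. A lower level in a culture can come from fewer cells that express a gene or from less RNA in each, which cannot be told apart here.

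The labels call both lines male germ cells. Of 30 germ cell markers, only *Spo11* (2 copies, GC-1spg) and *Tdrd1* (4 copies, GC-2spd (ts)) had an unambiguous sense tag, and the defining genes *Ddx4* and *Dazl* had none in either library. Preferring sense matches for ambiguous tags added few copies of *Dnd1*, *Gfra1* and *Sycp3*. The 10 fibroblast markers, which include *Twist2*, had tags for 7 genes and summed to 3124 TPM for GC-1spg against 1763 TPM for GC-2spd (ts), with *Thy1*, *Lum* and *Fap* at 0. *Col1a1* (2063 and 513 TPM) and *Dcn* (710 and 2 copies) were lower, *Col3a1* (50 and 120 copies) was higher, *Col1a2* (605 and 907) and *S100a4* (3873 and 4784) were not called, and the median log2 ratio was -0.10. Sertoli cell markers summed to 228 and 41.9 TPM, with *Wt1* (620 and 0 copies), *Trf* (445 and 0) and *Dhh* (24 and 0) lower and *Gata4* (29 and 138) higher. In the main counts single genes carried the next sums. *Acta2* gave 555 of the 671 copies of the peritubular myoid markers in GC-2spd (ts), whose sum was 36.3 and 142 TPM, and the other 6 were not called. Among those 6, *Tagln* had 0 and 3 copies. Preferring sense matches for ambiguous tags gave *Tagln* 5 and 219 copies and a call of higher. *Nr5a1* gave 188 of the 193 copies of the Leydig cell markers in GC-2spd (ts), whose sum was 0.789 and 40.8 TPM, with *Cyp17a1*, *Hsd3b1*, *Insl3*, *Lhcgr* and *Hsd3b6* at 0. The endothelial and blood cell markers had *Kdr* alone, at 2 and 4 copies, which was not called. The part of other cell types in the differences between the libraries was not tested.

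The most abundant sense tag of each gene is the sequence that its level mostly rests on. Coordinates are on GRCm38, with the transcripts of GENCODE M21, and the capitals mark the CATG site.

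Twist1: CATGgtaaaatgcaaatagat

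Twist2: CATGgcctgctcagctagccg

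Snai1: CATGaataatggccatcactt

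Snai2: CATGtgatggatgcagtaata

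Zeb2: CATGctcgaataaaaatgtag

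Prrx1: CATGaagtgattccttctcaa

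Prrx2: CATGgccaacagcatcgccag

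The *Twist1* tag (chr12:33959711-33959731), the *Twist2* tag (chr1:91847876-91847896), the *Snai1* tag (chr2:167542606-167542626), the *Snai2* tag (chr16:14709148-14709168) and the *Zeb2* tag (chr2:44987130-44987150, minus strand) lay in the 3′ UTR, and no CATG followed them in at least 1 transcript of the gene. The *Prrx1* tag (chr1:163246070-163246090, minus strand) was in the 3′ UTR with 1 further CATG site after it. The *Prrx2* tag (chr2:30880849-30880869) was coding sequence in at least 1 transcript, again at the last CATG site. *Zeb1*, a gene on the plus strand of chromosome 18, is described by its counts only.

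*Prrx1*, *Zeb2*, *Prrx2* and *Snai1* were higher in the GC-2spd (ts) library, *Snai2* was higher by less than 2-fold, *Twist1* and *Zeb1* were not separated by their intervals, and *Twist2* was at a lower level without passing the test. A gene was called when the two-sided Audic-Claverie test gave an FDR (false discovery rate, Benjamini-Hochberg, over all genes) no higher than 0.001 and the log2 ratio of TPM, GC-2spd (ts) over GC-1spg, was at least 1 in size. By that rule 4 of the 8 genes were higher and 0 lower, against 11.7% higher and 7.84% lower of all 14450 genes. Among the 8256 genes with at least as many tags as the member with fewest, 16.8% were higher and 9.58% lower. The 4 calls were all lost when edgeR's exact test was run with an assumed biological coefficient of variation (BCV) of 0.2 in place of counting noise alone.

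**Figure D1:**
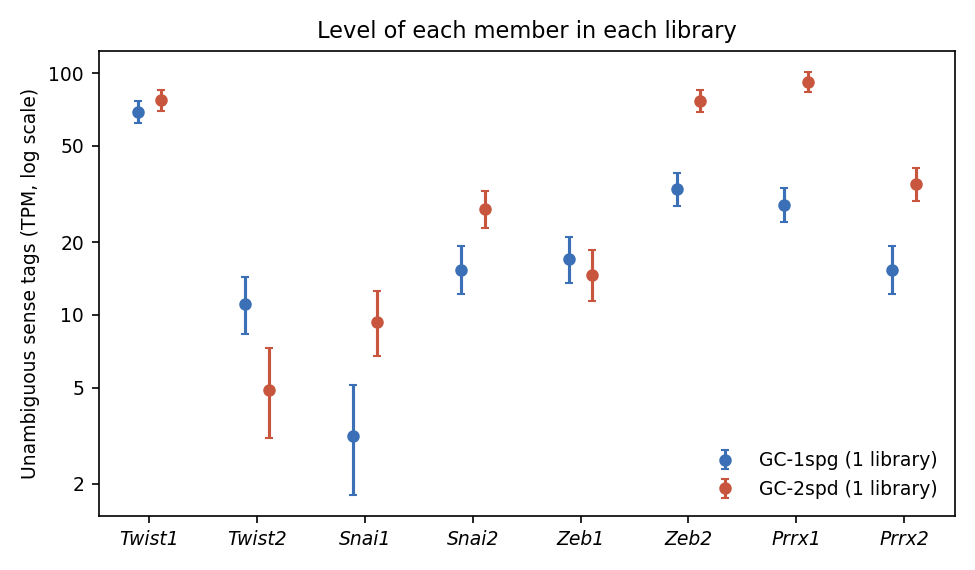
Level of each gene in TPM (log scale, unambiguous sense tags) in the GC-1spg library (blue) and the GC-2spd (ts) library (red), 1 library each, with exact 95% Poisson intervals. The intervals of *Twist2*, *Snai1*, *Snai2*, *Zeb2*, *Prrx1* and *Prrx2* lie apart between the libraries, and those of *Twist1* and *Zeb1* overlap.

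Both PRRX genes were called higher, and *Prrx1* had the largest log2 ratio and the lowest FDR of the 8 genes. *Prrx1* was counted 145 times among GC-1spg tags and 436 times among GC-2spd (ts) tags, or 28.6 TPM (95% interval 24.1 to 33.6) and 92.2 TPM (83.8 to 101.3). The level in GC-2spd (ts) was 3.23-fold higher, and the log2 ratio was 1.69 (1.42 to 1.97) with an FDR of 4.83e-38. Its paralogue *Prrx2* was counted 78 and 164 times, or 15.4 and 34.7 TPM. The log2 ratio of *Prrx2* was 1.17 (0.78 to 1.58, FDR 7.77e-09). TMM scaling lowers the log2 ratio by 0.17 for every gene counted in both libraries. Under it *Prrx2* was at 1.0002 and only just kept its call.

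*Prrx1* and *Prrx2* share a stretch of coding sequence in which a CATG site gives tags that differ at 2 of 21 bases. With positions counted from the first base of CATG, the *Prrx1* base first, the substitutions are T16C and A21G, and the capitals below mark them.

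Prrx1 (chr1:163248319-163248339): catggccaacagcatTgccaA

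Prrx2 (chr2:30880849-30880869): catggccaacagcatCgccaG

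Matching allowed 1 mismatch, so a tag of either gene with no error was assigned to that gene alone. The *Prrx1* tag of this site had 7 and 22 copies, and the *Prrx2* tag 78 and 162. All copies of *Prrx2* came from this site, the other 2 being a mismatch tag of it, while *Prrx1* was spread over 19 tags.

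The *Prrx1* tags fell into groups by transcript. Tags found only in the transcript *Prrx1*-204 had 44 copies (GC-1spg) and 128 copies (GC-2spd (ts)), with a log2 ratio of 1.64 (1.14 to 2.17). Tags found only in the other transcripts had 101 and 296 copies, a log2 ratio of 1.65 (1.32 to 1.99). A further 3 tags, shared by both kinds of transcript, had 0 and 12 copies. The share of *Prrx1*-204 tags was 30.3% and 29.4%. Both groups of transcripts were at a higher level in the second library, with overlapping intervals. Single tags varied more: the tag at chr1:163245971-163245991 had 26 and 105 copies (log2 ratio 2.12, 1.49 to 2.80), and the tag at chr1:163255944-163255964 had 15 and 13 (-0.10, -1.30 to 1.07).

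**Figure D2:**
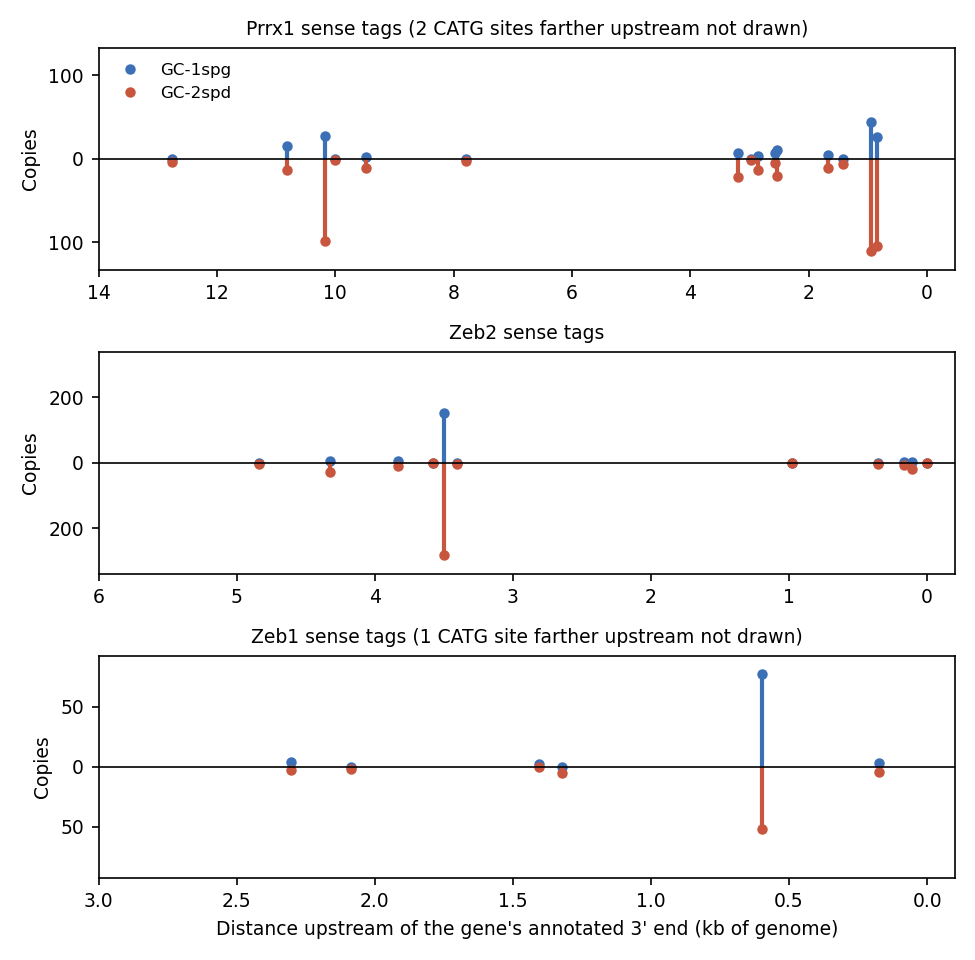
Copies of each sense tag of *Prrx1*, *Zeb2* and *Zeb1* against its distance upstream of the annotated 3′ end of the gene, in kb of genome, with GC-1spg drawn up (blue) and GC-2spd (ts) drawn down (red). *Prrx1* is spread over several sites, whereas *Zeb2* and *Zeb1* rest mainly on 1 site each.

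Of the ZEB genes, *Zeb2* was higher in GC-2spd (ts) and *Zeb1* was not separated. *Zeb2* had 168 and 364 copies, or 33.1 TPM (28.3 to 38.5) and 77.0 TPM (69.3 to 85.3). The log2 ratio was 1.22 (0.95 to 1.49, FDR 9.69e-20), 2.32-fold. *Zeb1* had 86 and 69 copies, or 16.96 and 14.6 TPM, and its log2 ratio of -0.22 had an interval of -0.69 to 0.26 (FDR 0.463). Any log2 ratio of *Zeb1* within that interval is compatible with these counts.

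Most *Zeb1* copies (77 and 52) came from the 6th CATG site from the 3′ end, 599 bases upstream of it. With only the last site, 3 and 7 copies were left and the log2 ratio was 1.32. *Zeb2* rested on the tag printed above, with 151 and 283 copies and a log2 ratio of 1.01 (0.72 to 1.30). Tags that only *Zeb2*-212 holds, which lie in its own 3′ UTR beyond that tag, had 4 and 37 copies, a log2 ratio of 3.31 (1.83 to 5.26). Tags shared with other *Zeb2* transcripts had 164 and 327 copies, a log2 ratio of 1.10 (0.82 to 1.38). The intervals of these log2 ratios did not overlap, and the share of *Zeb2*-212 tags was 2.38% and 10.2%. In GC-1spg its copies were 2 at chr2:44983741-44983761 and 2 at chr2:44983803-44983823, and its other tags were unlisted. Single copies were removed before deposit, so the GC-1spg share may be too low. The intervals do not allow for such copies, and a shift between *Zeb2* transcripts is not settled by these counts.

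The SNAIL genes were both at a higher level in GC-2spd (ts), and 1 of them was called. *Snai1* had 16 and 44 copies, or 3.15 TPM (1.80 to 5.12) and 9.31 TPM (6.76 to 12.5), with a log2 ratio of 1.56 (0.71 to 2.49, FDR 0.000445). The call of *Snai1* was not stable: under TMM scaling the log2 ratio was 1.39 and the FDR 0.00235. *Snai2* had 78 and 129 copies, or 15.4 and 27.3 TPM, with a log2 ratio of 0.83 (0.41 to 1.25). Its FDR of 0.000219 passed the threshold and its fold did not. A further *Snai2* tag with 46 and 31 copies also matched *Fam193a* and was left out of these counts.

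Neither TWIST gene was called. *Twist1*, a factor of cranial and limb mesenchyme, had 351 and 365 copies, or 69.2 TPM (62.2 to 76.8) and 77.2 TPM (69.5 to 85.6). The log2 ratio was 0.16 (-0.06 to 0.37, FDR 0.239), and -0.02 under TMM scaling. *Twist2*, a factor of dermal fibroblasts, had 56 and 23 copies, or 11.0 and 4.87 TPM, and a log2 ratio of -1.18 (-1.95 to -0.46). With an FDR of 0.00176 *Twist2* missed the threshold, but it was called lower under TMM scaling (log2 ratio -1.36, FDR 0.000263). By that scaling 3 of the 8 genes were higher and 1 lower, against 8.94% and 9.99% of all genes.

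**Figure D3:**
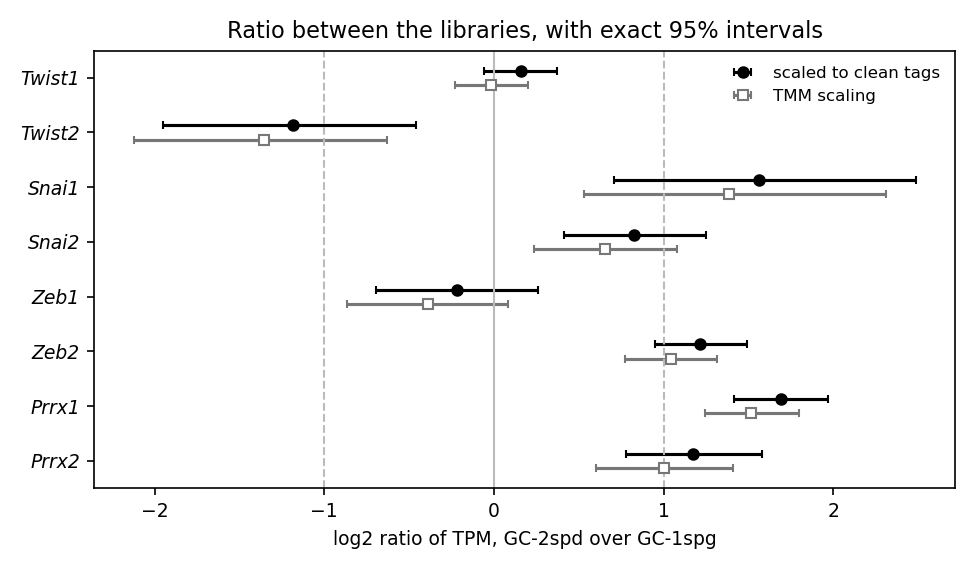
Log2 ratio of TPM, GC-2spd (ts) over GC-1spg, for each gene with exact 95% intervals, scaled to clean tags (black circles) and with TMM scaling (grey squares), and dashed lines at 2-fold. *Prrx1* is the farthest to the right and *Twist2* the farthest to the left.

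The order of the genes differed between the libraries. In GC-1spg *Twist1* was the highest, at 2.09 times *Zeb2* (1.73 to 2.53), and *Snai1* the lowest. Between these, *Zeb2* and *Prrx1* did not differ beyond their counting error, nor did neighbours among *Zeb1*, *Snai2*, *Prrx2* and *Twist2*. In GC-2spd (ts) *Prrx1* was the highest, at 1.19 times *Twist1* (1.04 to 1.38), and *Twist1* and *Zeb2* were not separated. This rank of *Prrx1* rested on the sum over its sites. With the last CATG site only, *Prrx1* had 129 copies there, below *Twist1* (360), *Zeb2* (288) and *Prrx2* (164), and with the longest transcript of each gene it had 140. *Prrx2*, *Snai2*, *Zeb1*, *Snai1* and *Twist2* followed in the full counts, each below the one before it by more than counting error. The step from *Prrx2* to *Snai2* was narrow, at 1.27 (1.003 to 1.61), and left out the ambiguous *Snai2* tag, which had 31 copies in GC-2spd (ts). The rank of *Zeb1* also depended on its sites: with the last site only it had 7 copies, below *Snai1* (32) and *Twist2* (16). The 8 genes summed to 193 and 337 TPM, and the log2 ratio of the sums was 0.81 (0.69 to 0.92).

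Within each pair of paralogues the share of 1 gene does not depend on how the libraries are scaled, but it does depend on which CATG sites are counted. *Zeb1* made up 33.9% (exact binomial 95% interval 28.1 to 40.04) of the ZEB tags of GC-1spg and 15.9% (12.6 to 19.7) of those of GC-2spd (ts), an odds ratio of 0.371 (0.253 to 0.543). With the last CATG site only, the share of *Zeb1* was 1.95% and 2.37%. That setting left 3 and 7 *Zeb1* copies, too few to show a fall or its absence. *Twist1* made up 86.2% and 94.1% of the TWIST tags, an odds ratio of 2.53 (1.49 to 4.41). *Prrx1* made up 65.0% and 72.7% of the PRRX tags, with an odds ratio of 1.43 (1.01 to 2.01). With the last site only *Prrx1* was the minority of its pair (31.6% and 44.0%), as with the longest transcript of each gene (36.1% and 46.1%). The share of *Snai1* in the SNAIL tags, 17.02% and 25.4%, had an odds ratio of 1.66 (0.85 to 3.37) whose interval holds 1.

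**Figure D4:**
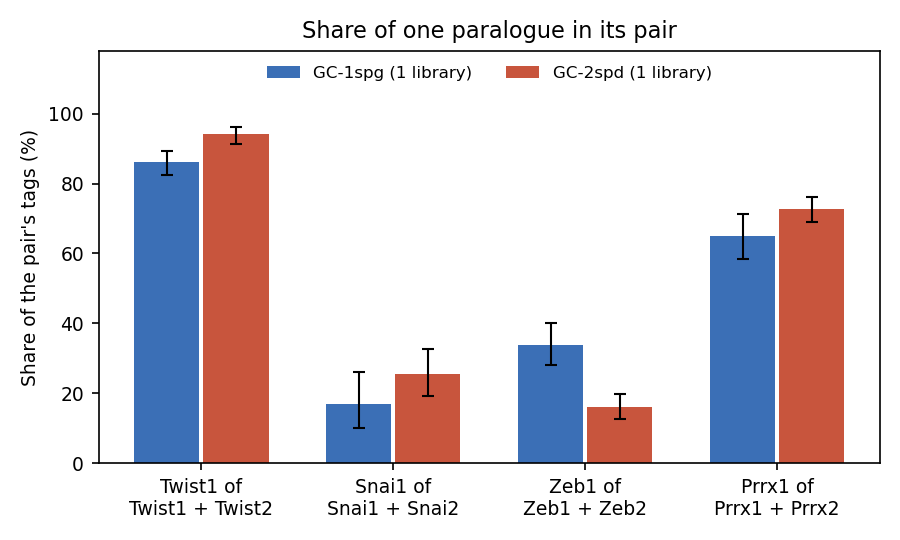
Share of the tags of each pair of paralogues that belongs to the first gene, in percent, with exact binomial 95% intervals, in the GC-1spg library (blue) and the GC-2spd (ts) library (red). The share of *Zeb1* is 33.9% and 15.9% over all CATG sites. It is 1.95% and 2.37% with the last site only, where 3 and 7 *Zeb1* copies were left.

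Antisense tags, which matched only the strand opposite to the transcript, added 151 and 215 copies over the 8 genes, against 978 and 1594 sense copies. *Twist1* had 51 antisense copies and then 19, a log2 ratio of -1.32 (-2.17 to -0.54), beside a sense ratio whose interval holds 0. *Zeb2* had 30 and 85 antisense copies (1.60, 0.99 to 2.26) and *Prrx1* 39 and 85 (1.23, 0.66 to 1.81), so that antisense and sense copies of these genes were both higher in GC-2spd (ts). These antisense ratios are a description and were not called.

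The genes that work with or act through these factors were read from lists, described by how many passed the same test in each direction. Over all genes, 11.7% were higher and 7.84% lower. The median log2 ratio with 0.5 tags added was 0.996 for the 8 genes and 0.13 for all genes.

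Among the dimer partners of the TWIST proteins and their inhibitors, *Tcf4*, an E protein, was higher in GC-2spd (ts) (86 and 481 copies, log2 ratio 2.59, 2.25 to 2.93). *Id1* and *Id4*, which hold E proteins away from DNA, were lower (1386 and 481 copies, and 38 and 7 copies). Of the 7 genes 1 was higher and 2 lower, with a median of 0.16, and *Id3* (1330 and 1280 copies) and *Id2* (768 and 802) were not called. Of the relatives in the same families, 4 of 9 had a tag. *Scx*, a factor of tendon, was lower (354 and 43 copies), and *Hand2* was lower (478 and 0 copies, at least 42.4-fold lower). *Msc* was higher (3 and 48 copies), and *Tcf21* (0 and 10) was not called. The median of 0.48 does not measure a rise of the list, since it lay between *Scx* and *Msc*, whose ratios had opposite signs. The sizes of the *Hand2* and *Tcf21* ratios depended on the 0.5 tags added. Copies of the list in GC-2spd (ts) were 101, against 835 in the other library.

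None of the 12 corepressors, which SNAIL and ZEB proteins recruit, was called, with a median of 0.40 and *Ctbp1* (1692 and 1181 copies) and *Suz12* (288 and 433) among the most abundant. Of the 11 genes with a tag that control the turnover of these proteins, *Pak1*, a kinase, was higher (89 and 274 copies) and 0 were lower, with a median of 0.39. Of 13 genes of TGF-beta signalling, a main inducer of the transition, *Smad2* (39 and 103 copies) and *Smad7* (308 and 598) were higher and *Tgfb3* (64 and 21) and *Tgfbr3* (217 and 70) were lower, with a median of 0.47. Under TMM scaling 1 was higher and 3 were lower. Of 11 other mesenchymal factors with a tag, *Tead3* (15 and 42 copies) was higher, a call lost under TMM scaling, and *Sox4* (366 and 133) was lower, with a median of 0.59.

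The genes that these factors are known to repress or to raise differed in their counts. Of 27 epithelial genes 14 had a tag, and E-cadherin (*Cdh1*) and *Epcam* had none in either library. *Krt19* (2666 and 26 copies), *Jup* (398 and 76) and *Krt18* (67 and 0, at least 5.94-fold lower) were lower, and *Pkp2* (70 and 211) was higher. The other 10 were not called. The median of -2.25 does not measure a fall of the list, since several of those 10 had 9 copies or fewer against 0 and their ratios were set by the 0.5 tags added. *Krt19* alone gave 2666 of the 3308 copies of the list in GC-1spg. Of the 12 epithelial guardians, factors that hold the epithelial state, 5 had a tag and *Klf5* was higher (59 and 127 copies), with a median of -0.47.

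Of 29 mesenchymal genes with a tag, 16 were higher and 2 lower, with a median of 1.34, and under TMM scaling 15 were higher and 4 lower. With the last CATG site only 12 were higher and 1 lower, and with the longest transcript of each gene 13 and 2. Of the 8256 genes with at least as many tags as the member with fewest, 16.8% were higher and 9.58% lower. Among the higher genes with many tags were *Cald1* (1120 and 4431 copies), *Vim*, which encodes vimentin (984 and 2897), and *Lox*, a collagen crosslinking enzyme (1122 and 2324). The call of *Lox* was lost under TMM scaling (log2 ratio 0.98). *Col1a1* (10465 and 2425) and *Mmp3* (62 and 6) were lower, and *Sparc* (21159 and 10473) and *S100a4* (3873 and 4784) were not called. *Sparc* had a log2 ratio of -0.91, short of 2-fold, and was called lower under TMM scaling (-1.09). *Tagln* had 0 and 3 copies, but 5 and 219 when sense matches were preferred for ambiguous tags.

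**Figure D5:**
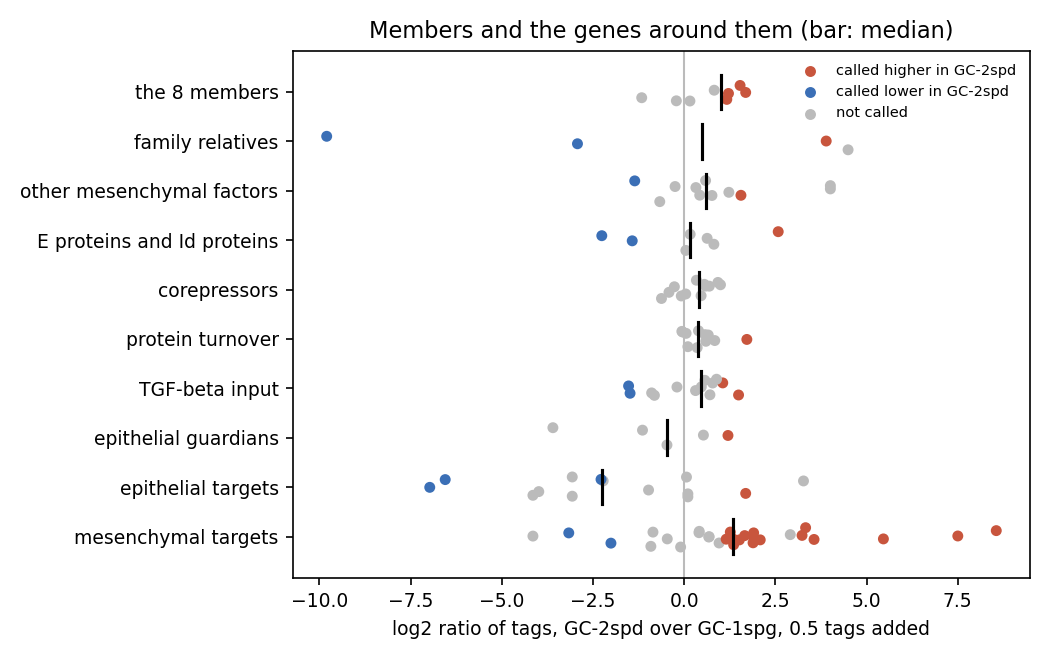
Log2 ratio of tags, GC-2spd (ts) over GC-1spg, with 0.5 tags added to both counts, for the 8 genes and for each list set beside them, with red for genes called higher, blue for lower and grey for not called, and a bar at the median. The medians are 0.996 for the 8 genes and 1.34 for the mesenchymal targets, and 10 of the 14 epithelial targets are not called, several of them with few copies against 0.

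For the 4 called genes, the gene of these lists with at least 20 tags and the nearest log2 ratio, among 87 genes, was *Tead3* for *Snai1* (1.59 against 1.56), *Klf5* for *Zeb2* (1.21 against 1.22), *Pkp2* for *Prrx1* (1.69 for both) and *Lox* for *Prrx2* (1.152 against 1.17). This likeness is over 2 libraries only.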

How the data were processed

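By DGE, 1 library of tags was counted per cell line. The authors removed adaptor, low quality and single copy tags and deposited for each remaining tag its count and its TPM, which is the count per 1000000 clean tags; the smallest count is 2. The authors matched tags to UniGene clusters, which were not used here. Tags were matched to GENCODE M21 transcripts (GRCm38) with at most 1 mismatch after CATG, exact matches first, and sense tags of 1 gene were summed and scaled to clean tags. The Audic-Claverie test was run over all genes, with 0.01 TPM for a gene at 0, since edgeR's quasi-likelihood test needs replicates. Intervals on ratios are exact conditional binomial intervals; a gene at 0 was bounded by allowing 1 unlisted copy for each tag seen in the other library, up to the 95% Poisson limit (one-sided). The calling was tested on simulated data. A first run, with changed genes of at least 20 tags, recovered fewer than the number required, and the minimum was then raised to 60 tags, which passed. With a BCV of 0.2 simulated between the libraries, the Audic-Claverie calls also took in many unchanged genes.

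The 8 genes and the lists were chosen with earlier results of these data known. The text names the 8 genes, in each list up to 4 called genes in each direction and up to 2 others with most tags, defining genes without a tag, and the nearest gene by log2 ratio. An item that this rule names is not reported here. *Tagln*, *Dnd1*, *Gfra1* and *Sycp3* were named after their values were seen. The alternatives were 14 settings of matching, strand, reference, scaling, filter and test. Python 3.11.15, numpy 2.4.6, pandas 2.3.3, scipy 1.17.1, matplotlib 3.10.9, R 4.3.3 and edgeR 4.0.16 were used.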

Additional observations from a re-analysis of the deposited data

How the results depend on the processing

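*Zeb2*, *Prrx1* and *Prrx2* were called higher under 12 of 14 alternatives, and lost the call with an assumed BCV of 0.2 or 0.4. At those values edgeR's exact test called 0 and 0 of the 8 genes, 1000 and 244 of all genes against 2817, and 18 and 6 of the listed genes. *Snai1* also lost its call with TMM scaling, scaling to unambiguous tags, the last CATG site only and a BCV of 0.1. *Twist2* was called lower with TMM scaling, scaling to unambiguous tags (log2 ratio -1.27) and antisense tags added (-1.34), and had no tag with the longest transcript only. The log2 ratio changed sign for *Zeb1* with the last CATG site only (1.32) and for *Twist1* with TMM scaling (-0.016); the cause was not tested. The shares of *Zeb1* and *Prrx1* in their pairs moved with the last CATG site only, and those of *Prrx1* and *Twist1* with the longest transcript. No paired analysis was possible because each line has 1 library, and no library could be left out. Depth limits *Snai1* and *Twist2* most.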
